A study of Mus musculus with 3 samples.

Results

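The genes described here are 39 members of the DNA replication machinery and of the S-phase programme, chosen by their gene symbols and not by any measured value, out of 32287 features counted in this series. All 39 symbols were present once in the count matrices. All 39 had at least 50 counts over both libraries in each comparison of libraries over all cells used, though not in each smaller set of cells below. Their levels were measured by single-cell RNA sequencing of sorted Müller glia (MG), the radial glia of the retina, in 3 libraries, a control, a CCA (cell cycle activator) and a CCANT library. All mice carried the genotype Glast-CreERT2; R26-CAG-LSL-Tdt and received tamoxifen at 75 mg/kg daily for 5 days from postnatal day 20 (P20), which turns on tdTomato in cells that express the Glast-driven Cre. At P28 the control eyes were injected in the vitreous with AAV7m8-GFAP-GFP-LacZsh, and the CCA eyes with AAV7m8-GFAP-cyclin D1-p27sh mixed 9:1 with the control virus. The GFAP promoter of these vectors drives their cargo in MG. All groups thus had the GFP virus, at a low dose beside the CCA vector, and the CCA vector adds cyclin D1 and a short hairpin RNA against p27, the product of *Cdkn1b*. The CCANT eyes had the CCA vector and in addition NMDA, an excitotoxin that kills retinal neurons, at P35, and Trichostatin A (TSA), an inhibitor of histone deacetylases, at P37. Retinas with good GFP expression were collected at P51, 2 to 4 retinas were pooled per library, and tdTomato+ cells were sorted. No count of mice per library was given and each group is 1 library, so no test between groups was possible and no p-value or standard error is given.

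Before a cell divides it copies its genome once. In G1 the origin recognition complex, Cdc6 and Cdt1 load the ring-shaped Mcm2-7 helicase onto DNA, a step called licensing. At the onset of S phase Cdc45 and the GINS complex join Mcm2-7 to make the active helicase, and primase, DNA polymerases and the sliding clamp PCNA extend the new strands while ribonucleotide reductase and thymidylate synthase supply nucleotides and chaperones supply histones. Many of these genes are known targets of E2F transcription factors, which the retinoblastoma protein restrains until cyclin D kinases phosphorylate it, and p27 is an inhibitor of cyclin-dependent kinases. Adult MG of the mouse are normally quiescent.

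The cells used were the 10926 that the authors kept after quality control, 3758 from the control, 3890 from the CCA and 3278 from the CCANT library, with median depths of 24235.5, 20710.5 and 20721.5 unique molecular identifiers (UMIs, 1 per captured transcript). Of these, 98.4%, 93.3% and 85.8% lay in clusters with MG markers, and 0.772%, 5.09% and 12.7% lay in clusters with both MG and rod markers. Between 6 and 12 barcodes per library were shared with another library. A level in CPM is the number of UMIs of a gene in every 1000000 UMIs counted over the kept cells of a library. *Cdkn1b*, the target of the hairpin, was at 225.9 CPM in control, 84.4 CPM in CCA and 105.7 CPM in CCANT cells, and *Ccnd1*, the endogenous gene for cyclin D1, was at 213.3, 135.9 and 129.0 CPM. Whether transcripts of the vector's cyclin D1 were counted as *Ccnd1* is not known, so this value does not check the overexpression. The cells of the control library expressed Y-linked genes (3505 cells, 253 unclear), those of the CCA library expressed *Xist* (3859 cells, 31 unclear), and the CCANT library held both kinds (1183 with Y-linked genes, 1718 with *Xist*, 377 unclear). Sex and treatment therefore cannot be told apart between the control and the CCA library.

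The 39 genes together were highest in the CCA library, lowest in the control and in between in the CCANT library. Summed over the group, levels were 395 CPM in control, 764 CPM in CCA and 551 CPM in CCANT cells. These sums rest on 37697, 63645 and 39010 UMIs. The summed level in CCA was 1.94 (1.91 to 1.96) times that in control, that in CCANT was 1.39 (1.38 to 1.41) times that in control, and that in CCANT was 0.721 (0.712 to 0.730) times that in CCA. The values in parentheses are exact 95% bounds on a ratio between Poisson counts. Here and below they reflect counting error alone, not variation among mice or library preparations. Both ratios to control use the same control library. The 28 G2/M genes listed for comparison (such as *Mki67* and *Top2a*) were at 58.2, 692 and 294 CPM, a CCA to control ratio of 11.9.

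Gene by gene, all 39 were higher in CCA than in control, with ratios from 1.07 for *Blm* to 39.8 for *Chaf1b*. The interval lay above 1 for 38 of them, and that of *Blm* held 1. Of all 17630 features tested, 60.7% were higher in CCA and 40% had an interval above 1. Of the 39, 24 were at least 2-fold higher, against a background of 5.81% of the 17630 features with at least 50 UMIs over both libraries. In CCANT, 38 of the 39 were higher than in control, with the interval above 1 for 36, and 19 were at least 2-fold higher, against a background of 5.55% of 17380 features. Of those features 55.3% were higher in CCANT and 35.3% had an interval above 1. *Blm* was the exception at a ratio of 0.796 (0.730 to 0.866), and the intervals of *Pold3* and *Casp8ap2* held 1. The median log2 ratio to control was 1.59 over the 39 genes in CCA and 0.95 in CCANT, beside 0.07 and 0.03 over all features tested.

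**Figure D1:**
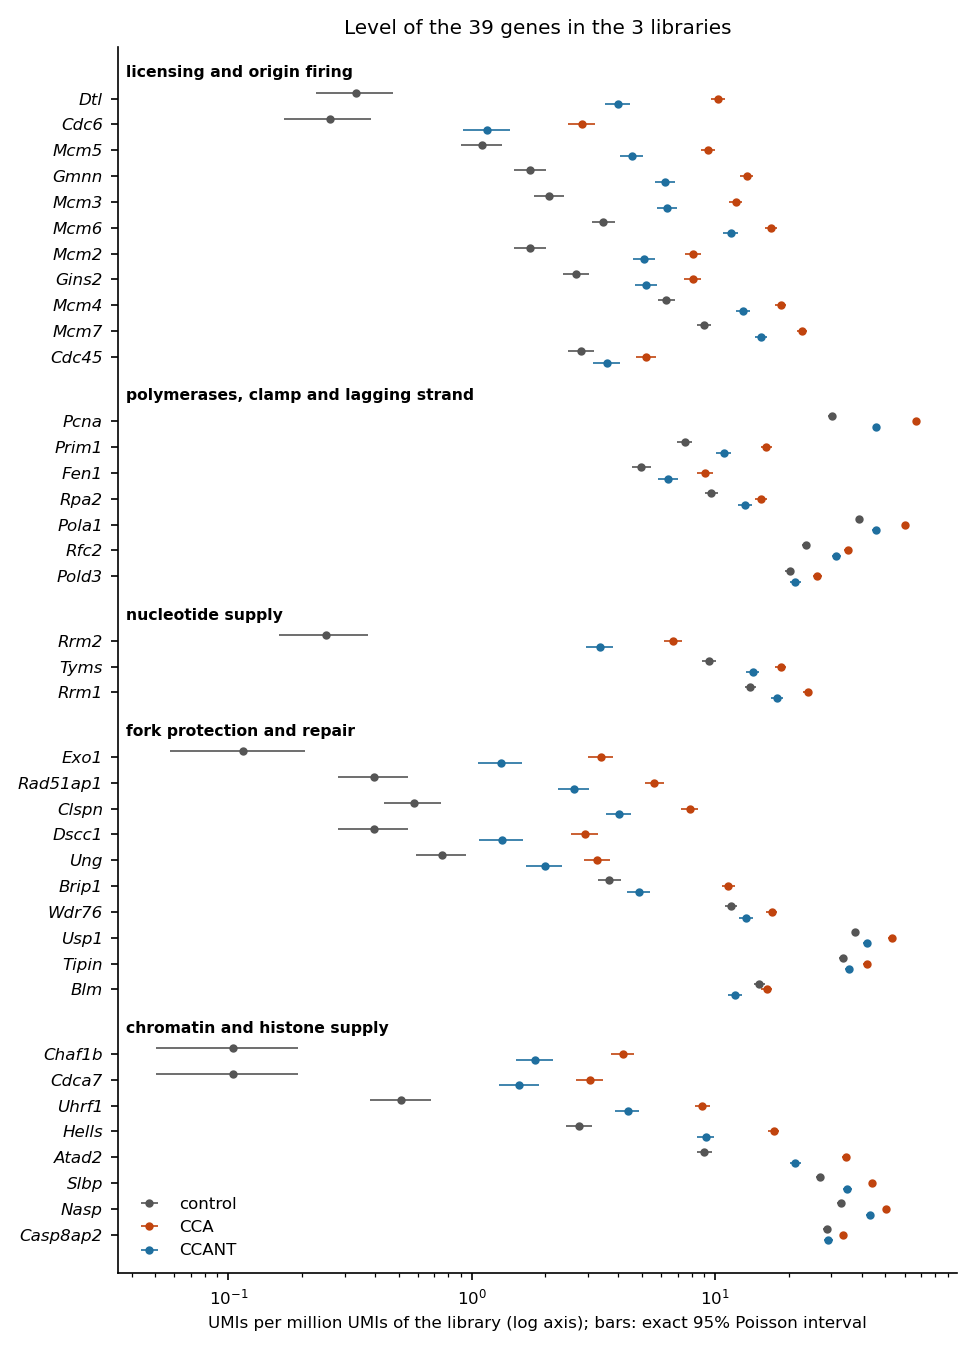
Level of each of the 39 genes, by role, in UMIs per 1000000 UMIs of the library on a log axis, for the control (grey), CCA (orange) and CCANT (blue) libraries. Points are single libraries and bars are exact 95% Poisson intervals. The CCA point lies to the right of the control point for all 39 genes, from 0.105 to 4.17 CPM for *Chaf1b* and from 15.2 to 16.3 CPM for *Blm*.

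The size of the ratio went with how little of a gene the control library held. A set of 11 genes had under 100 UMIs over all control cells (10 for *Cdca7* and *Chaf1b*, 11 for *Exo1*, 24 for *Rrm2*, 25 for *Cdc6*, 32 for *Dtl*, 38 for *Dscc1* and *Rad51ap1*, 49 for *Uhrf1*, 55 for *Clspn* and 72 for *Ung*). All 11 were at least 2-fold higher in both treated libraries, with CCA ratios of 4.35 to 39.8. Among the 16 genes with at least 100 but under 1000 control UMIs, 12 were at least 2-fold higher in CCA and 8 in CCANT, and the CCA ratios ran from 1.60 to 8.49. Of the 12 genes with 1000 or more control UMIs, *Pcna* alone passed 2-fold in CCA, none did in CCANT, and the CCA ratios ran from 1.07 to 2.21. The control count enters each ratio, so this order is a description.

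Promoter sequences of the licensing genes are shown first, because this role had the largest ratio of summed levels and the letters searched are those of E2F sites. RefSeq promoters (GRCm38.p6, 250 bases before to 50 after the start) were matched for 30 of the 39 genes. *Usp1*, *Exo1*, *Rfc2*, *Mcm4*, *Gins2*, *Dscc1*, *Tipin*, *Atad2* and *Gmnn* were not matched. The words TTTCCCGC, TTTCGCGC, TTTGCCGC and TTTGGCGC were searched on both strands, where matches on opposite strands can overlap. In the 250 bases before the start of *Mcm5* and *Mcm6*, shown 5′ to 3′ along the gene with matches in capitals, 2 overlapping matches and 3 matches were found. *Uhrf1* and *Pola1* are shown beside them because each holds 1 match while their CCA to control ratios were 17.3 and 1.54. The table held 34 promoters for the 30 genes, and a gene counted as holding a word where any of its promoters did. *Uhrf1* has another promoter, at chr17:56303087-56303386 and nearer to the gene start given below, with 0 matches.
Mcm5 (chr8:75109259-75109508, plus strand): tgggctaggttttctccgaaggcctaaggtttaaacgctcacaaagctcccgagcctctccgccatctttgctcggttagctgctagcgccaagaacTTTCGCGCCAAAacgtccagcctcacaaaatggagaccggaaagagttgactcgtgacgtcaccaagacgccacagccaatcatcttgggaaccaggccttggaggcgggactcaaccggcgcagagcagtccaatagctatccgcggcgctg
Mcm6 (chr1:128359706-128359955, minus strand): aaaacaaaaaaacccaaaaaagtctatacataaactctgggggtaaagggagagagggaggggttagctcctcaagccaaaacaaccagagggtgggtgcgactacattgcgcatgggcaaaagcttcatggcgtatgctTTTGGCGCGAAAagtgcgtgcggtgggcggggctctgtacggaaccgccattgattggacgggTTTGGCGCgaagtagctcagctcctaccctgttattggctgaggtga
Uhrf1 (chr17:56304063-56304312, plus strand): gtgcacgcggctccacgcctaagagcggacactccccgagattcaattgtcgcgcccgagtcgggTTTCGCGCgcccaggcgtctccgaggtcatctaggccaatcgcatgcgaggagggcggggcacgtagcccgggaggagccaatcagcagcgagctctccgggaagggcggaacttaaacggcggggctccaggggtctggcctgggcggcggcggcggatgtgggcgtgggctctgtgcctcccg
Pola1 (chrX:93632156-93632405, minus strand): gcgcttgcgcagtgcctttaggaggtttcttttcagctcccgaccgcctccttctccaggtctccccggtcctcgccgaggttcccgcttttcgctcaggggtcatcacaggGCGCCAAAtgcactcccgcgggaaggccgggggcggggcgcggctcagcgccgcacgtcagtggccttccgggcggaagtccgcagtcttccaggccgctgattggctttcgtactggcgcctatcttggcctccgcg

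Matches of 5 more genes, described with their values below, are shown as short stretches with the 10 bases on either side, or fewer at the end of the window. The first letter lay at position -8 for *Dtl*, -138 for *Cdc6*, -62 for *Hells* and 22 for *Clspn*, counted from the start as 1, and at 20 and 39 for *Mcm3*. The start is that of RefSeq, and the stretches of *Cdc6* and *Hells* lie inside the gene positions given below. Of the 250 bases before the start, 81 of *Cdc6* and 75 of *Hells* were annotated exon bases of the gene itself. For *Dtl* 159 were exon bases of *Ints7*, and the windows shown for *Mcm5*, *Mcm6*, *Uhrf1* and *Pola1* held 0.
Dtl (chr1:191575535-191575562, minus strand): gtgacgtcagTTTGGCGCggagtttggc
Cdc6 (chr11:98908003-98908030, plus strand): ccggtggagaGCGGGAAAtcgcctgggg
Hells (chr19:38930918-38930945, plus strand): accaccgggtTTTCCCGCgaaagagaag
Clspn (chr4:126556991-126557018, plus strand): ccgcgtctggGCGCGAAAgctcgaactt
Mcm3 (chr1:20820276-20820303, minus strand): aacttccgtgGCGGGAAAacttgggaag
Mcm3 (chr1:20820263-20820284, minus strand): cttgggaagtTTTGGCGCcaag

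Counted over the group, 13 of the 30 matched genes (43.3%) held at least 1 such word, beside 2.60% of the 27025 genes of the promoter table, 4.27% of the 12649 genes that were tested in CCA over control and 30.2% of 43 other replication genes. At least 2 matches were found for 4 of the 30, *Mcm3*, *Mcm5*, *Mcm6* and *Mcm7*, beside 0.107% of all genes of the table. The CHR word TTTGAA, found in promoters of many G2/M genes, was present in 5 of the 30 (16.7%), beside 20.2% of all genes of the table. The genes with an E2F word were *Casp8ap2*, *Cdc6*, *Cdca7*, *Clspn*, *Dtl*, *Hells*, *Mcm3*, *Mcm5*, *Mcm6*, *Mcm7*, *Pola1*, *Pold3* and *Uhrf1*. Their median CCA to control ratio was 6.32, and 10 of the 13 were at least 2-fold higher. The 17 without a word had a median ratio of 1.97 with 8 at least 2-fold higher, and they included *Chaf1b*, *Rrm2* and *Rad51ap1*. For *Mcm7* all 250 bases before the start of the promoter with a word were exon bases of *Ap4m1* or *Mcm7*. Exons of the gene itself took 60 of these bases for *Cdca7* and 19 for *Casp8ap2*. A match describes letters in this window and is no evidence of binding.

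Licensing and origin-firing genes were the role with the largest summed ratio. By the median over genes, the log2 ratio of CCA to control was 2.29 here and 2.34 for chromatin and histone supply. The 11 genes of this role summed to 31.5 CPM in control, 128 CPM in CCA and 76.0 CPM in CCANT cells, or 4.05 (3.89 to 4.22) times the control in CCA and 2.41 (2.31 to 2.52) times in CCANT. At least 2-fold higher were 10 of the 11 in CCA and 8 of the 11 in CCANT. The 6 subunits of the Mcm2-7 helicase alone summed to 23.7, 87.8 and 55.9 CPM in the same order, and all 6 passed 2-fold in CCA. Their ratios were not equal. *Mcm5* (chr8:75109569-75128439) was at 1.10 CPM in control, 9.34 CPM in CCA and 4.55 CPM in CCANT cells, with a CCA to control ratio of 8.49 (6.92 to 10.5). *Mcm7* (chr5:138164583-138172422) was at 9.02 CPM in control, 22.7 CPM in CCA and 15.4 CPM in CCANT cells, with a ratio of 2.52 (2.32 to 2.73). The intervals of these 2 subunits did not overlap, and *Mcm7* overlaps *Cops6* and *Ap4m1* on the opposite strand. Between them lay *Mcm3* (chr1:20802968-20820312) at 2.07, 12.1 and 6.33 CPM and a ratio of 5.85, *Mcm6* (chr1:128331590-128359664) at 3.47, 17.0 and 11.6 CPM and 4.89, *Mcm2* (chr6:88883474-88898780) at 1.74, 8.11 and 5.08 CPM and 4.66, and *Mcm4* (chr16:15623897-15637400) at 6.30, 18.6 and 13.0 CPM and 2.95. In CCANT, *Mcm7* at a ratio of 1.71 was the one subunit under 2-fold.

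*Cdc6* and *Dtl* stood at opposite ends of the licensing cycle. *Cdc6* (chr11:98907801-98923940), the ATPase that loads the helicase, was at 0.262 CPM in control, 2.83 CPM in CCA and 1.16 CPM in CCANT cells, and its CCA to control ratio was 10.8 (7.15 to 17.1). *Dtl* (chr1:191537356-191575544), the receptor of the ubiquitin ligase that destroys Cdt1 once replication starts, was at 0.335 CPM in control, 10.3 CPM in CCA and 3.98 CPM in CCANT cells. Its ratios were 30.6 (21.5 to 45.0) in CCA and 11.9 (8.22 to 17.7) in CCANT, the highest of the role in both. At a common depth of 8000 UMIs per cell, 0.188%, 4.28% and 1.95% of control, CCA and CCANT cells had a *Dtl* UMI, beside 0% (0 of 562.0 cells, which allows up to 0.534%), 0.314% and 0.161% of amacrine cells of the same libraries, which are postmitotic neurons. The median depths of those amacrine cells before thinning were 24074.5, 26068 and 21961 UMIs. *Gmnn* (chr13:24751845-24761923), which encodes geminin, the inhibitor of Cdt1 in S and G2, was at 1.74 CPM in control, 13.5 CPM in CCA and 6.20 CPM in CCANT cells, a CCA ratio of 7.74 (6.57 to 9.17). The firing factors had smaller ratios. *Gins2* (chr8:120578633-120589304), a GINS subunit, was at 2.68, 8.07 and 5.20 CPM with a CCA ratio of 3.01 (2.60 to 3.49), and *Cdc45* (chr16:18780447-18811987) at 2.82, 5.19 and 3.59 CPM with 1.84 (1.58 to 2.15), the one gene of the role under 2-fold in CCA. Both have a gene on the opposite strand, *Gse1* and *Ufd1*, whose reads cannot be told apart from theirs if strand was not used in counting.

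Polymerases, the clamp and the lagging-strand enzymes differed less between libraries. The 7 genes summed to 135 CPM in control, 229 CPM in CCA and 175 CPM in CCANT cells, or 1.69 (1.66 to 1.73) times the control in CCA and 1.29 (1.26 to 1.33) times in CCANT. Of the 7, *Pcna* and *Prim1* were at least 2-fold higher in CCA and 0 were in CCANT. *Pcna* (chr2:132249162-132253314), the sliding clamp that holds polymerases on DNA, was at 30.2 CPM in control, 66.8 CPM in CCA and 45.9 CPM in CCANT cells, ratios of 2.21 (2.12 to 2.32) and 1.52 (1.45 to 1.60). A *Pcna* UMI was found in 22.1%, 29.5% and 26.1% of control, CCA and CCANT cells at 8000 UMIs, beside 18.7%, 27.8% and 27.4% of amacrine cells, so these shares did not separate MG from neurons. *Prim1* (chr10:128015168-128030037), the catalytic primase, was at 7.49, 16.2 and 10.8 CPM with a CCA ratio of 2.17 (1.98 to 2.38). *Pola1* (chrX:93304767-93632155), the catalytic subunit of DNA polymerase alpha, is an X-linked gene of 327 kb and was at 39.001, 60.1 and 45.7 CPM with 1.54 (1.48 to 1.61). The flap endonuclease *Fen1* was at 4.97, 9.08 and 6.40 CPM (1.83 in CCA), the single-strand binding subunit *Rpa2* at 9.65, 15.4 and 13.3 CPM (1.60), and the clamp-loader subunit *Rfc2* at 23.6, 34.9 and 31.4 CPM (1.48). *Pold3*, an accessory subunit of polymerase delta, had the smallest ratios of the role, 1.30 (1.22 to 1.38) in CCA and 1.06 (0.988 to 1.13) in CCANT.

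The 3 genes of nucleotide supply summed to 23.6 CPM in control, 49.3 CPM in CCA and 35.5 CPM in CCANT cells, and the 2 subunits of ribonucleotide reductase behaved differently. *Rrm2* (chr12:24708241-24714146), the small subunit whose level limits the enzyme in S phase, was at 0.251 CPM in control, 6.70 CPM in CCA and 3.35 CPM in CCANT cells, ratios of 26.7 (17.7 to 42.0) and 13.3 (8.73 to 21.2). *Rrm1* (chr7:102441695-102469771), the large subunit, was at 13.9 CPM in control, 24.0 CPM in CCA and 17.9 CPM in CCANT cells, ratios of 1.72 (1.61 to 1.85) and 1.28 (1.19 to 1.39). The ratios of the 2 subunits did not overlap in their intervals in either treated library. *Tyms* (chr5:30058202-30073617), thymidylate synthase, was at 9.43, 18.6 and 14.2 CPM, and its CCA ratio of 1.97 (1.81 to 2.14) held 2. At 8000 UMIs per cell, 0.215%, 2.46% and 0.899% of control, CCA and CCANT cells had an *Rrm2* UMI, beside 0% (0 of 562.0 cells, which allows up to 0.534%), 0.157% and 0.161% of amacrine cells.

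Genes of fork protection and repair split into a set with high ratios and a set close to control. The 10 genes summed to 104 CPM in control, 163 CPM in CCA and 119 CPM in CCANT cells, or 1.57 (1.53 to 1.61) times the control in CCA and 1.15 (1.11 to 1.18) times in CCANT, and 6 were at least 2-fold higher in CCA and 5 in CCANT. *Clspn* (chr4:126556935-126593903), which encodes claspin, the adaptor that passes the ATR signal to Chk1, was at 0.576 CPM in control, 7.85 CPM in CCA and 4.01 CPM in CCANT cells, a CCA ratio of 13.6 (10.3 to 18.3). *Rad51ap1* (chr6:126923050-126939587), a gene of homologous recombination, was at 0.398, 5.62 and 2.63 CPM with 14.1 (10.1 to 20.2), and *Exo1* (chr1:175880581-175913489), a 5′ exonuclease, at 0.115, 3.39 and 1.31 CPM with 29.4 (16.2 to 59.6). The cohesion factor *Dscc1* was at 0.398, 2.92 and 1.33 CPM (7.33 in CCA) and the uracil glycosylase *Ung* at 0.754, 3.28 and 1.99 CPM (4.35). *Brip1* (chr11:86058138-86201193), a helicase that works with BRCA1, passed 2-fold in CCA only, at 3.68, 11.3 and 4.86 CPM, with ratios of 3.08 (2.72 to 3.49) in CCA and 1.32 (1.14 to 1.54) in CCANT.

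The other 4 genes of this role were under 2-fold in both libraries. *Usp1*, a deubiquitinase of PCNA and FANCD2, was at 37.6, 53.0 and 41.9 CPM, *Tipin*, a fork protection protein, at 33.3, 41.9 and 35.4 CPM, and *Wdr76*, a WD-repeat protein linked to DNA damage, at 11.6, 17.0 and 13.4 CPM. *Blm* (chr7:80454733-80535119), the Bloom syndrome helicase, was at 15.2 CPM in control, 16.3 CPM in CCA and 12.1 CPM in CCANT cells. Its CCA ratio of 1.07 (0.993 to 1.15) could not be told apart from 1 by counting, and its CCANT ratio of 0.796 (0.730 to 0.866) was the one value under 1 among the 39 in either comparison with control.

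Genes of chromatin and histone supply held the widest range. The 8 summed to 101 CPM in control, 196 CPM in CCA and 145 CPM in CCANT cells, ratios of 1.94 (1.89 to 1.99) and 1.44 (1.40 to 1.48), and 5 were at least 2-fold higher in each treated library. *Chaf1b* (chr16:93883901-93906115), a subunit of the factor that sets histones H3 and H4 on new DNA, was at 0.105 CPM in control, 4.17 CPM in CCA and 1.82 CPM in CCANT cells, ratios of 39.8 (21.4 to 83.7) and 17.4 (9.16 to 37.1). It overlaps the predicted gene *Gm49617* on the same strand. *Cdca7* (chr2:72476159-72486893), the partner that recruits the remodeller Hells, was at 0.105, 3.05 and 1.57 CPM with a CCA ratio of 29.1 (15.6 to 61.5), and *Hells* (chr19:38930915-38971051) itself at 2.76, 17.4 and 9.12 CPM with 6.32 (5.54 to 7.24). *Uhrf1* (chr17:56303321-56323486), which brings Dnmt1 to newly copied DNA, was at 0.513 CPM in control, 8.86 CPM in CCA and 4.36 CPM in CCANT cells, ratios of 17.3 (12.9 to 23.6) and 8.50 (6.27 to 11.7). *Atad2* (chr15:58094044-58135082), a bromodomain ATPase, was at 9.03, 34.4 and 21.3 CPM with 3.81 (3.53 to 4.12). The remaining genes serve histone supply. The histone chaperone *Nasp* was at 32.9, 50.2 and 43.1 CPM (1.53 in CCA), the stem-loop binding protein of histone mRNA *Slbp* at 26.9, 44.2 and 34.9 CPM (1.64), and *Casp8ap2*, needed for histone gene transcription, at 28.7, 33.6 and 29.2 CPM (1.17 (1.11 to 1.24) in CCA and 1.02 (0.961 to 1.08) in CCANT).

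**Figure D2:**
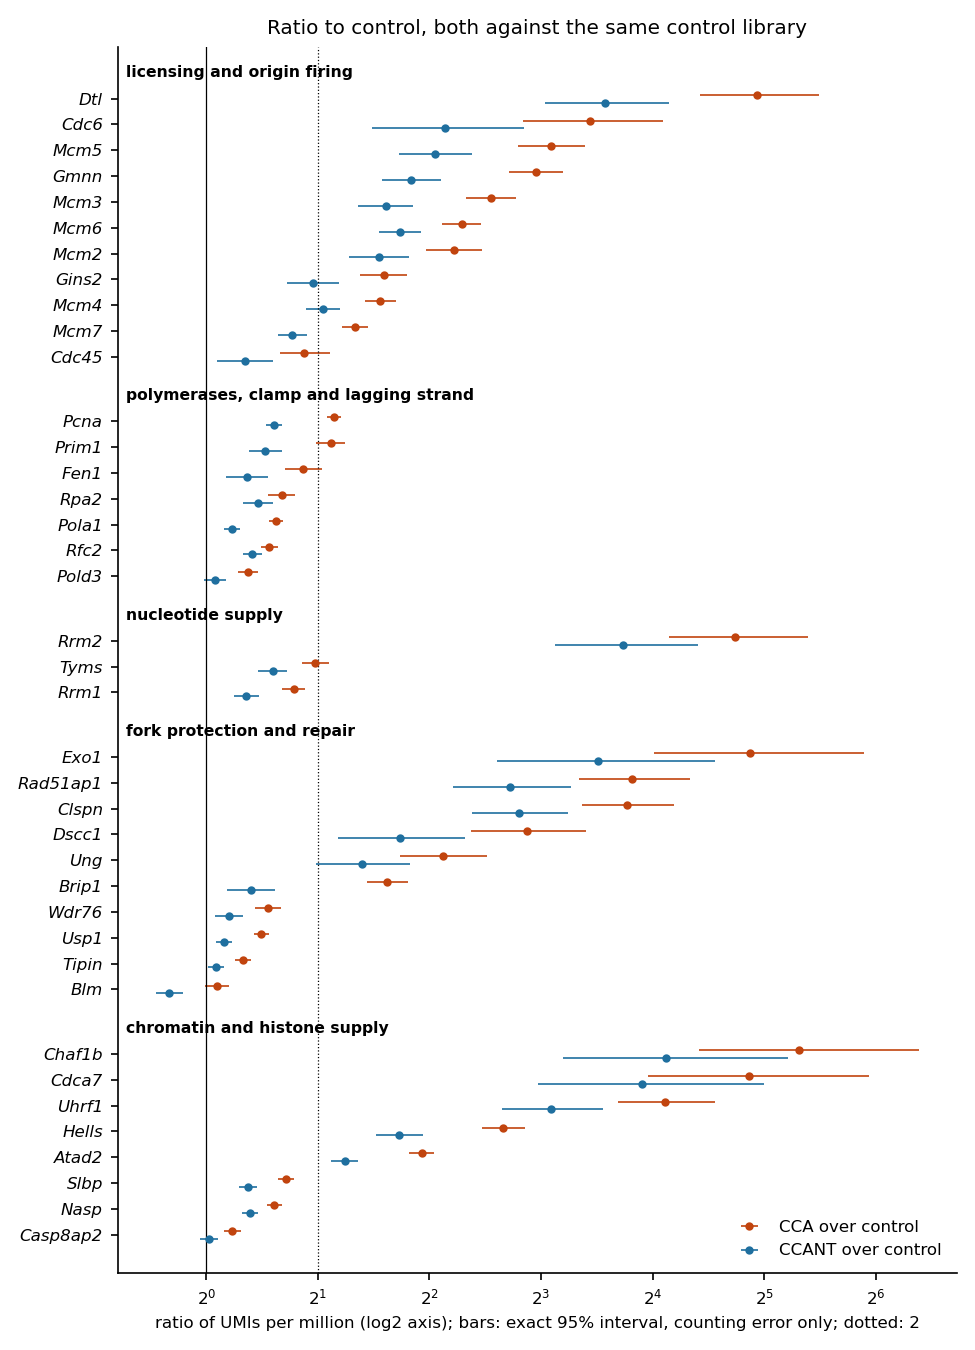
Ratio of each gene's level in CCA (orange) and in CCANT (blue) to its level in the same control library, on a log2 axis, ordered by the CCA ratio within each role. Bars are exact 95% intervals for counting error, the solid line is 1 and the dotted line is 2, and the CCA ratio exceeds the CCANT ratio for all 39 genes.

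Both treated libraries carried the CCA vector, and all 39 genes were lower in the CCANT than in the CCA library, each with an interval below 1. Of all features tested 59.8% were lower and 29% had an interval below 1. The ratio ran from 0.388 for *Exo1* to 0.898 for *Rfc2*. At least 2-fold lower were 11 of the 39, against a background of 2.09% of the 17397 features tested, and the median log2 ratio was -0.59 beside -0.04 over all features. The 11 were *Dtl* (0.388 (0.338 to 0.445)), *Cdc6* (0.408), *Gmnn* (0.460) and *Mcm5* (0.487) in licensing, *Rrm2* (0.499) in nucleotide supply, *Exo1* (0.388), *Brip1* (0.429), *Dscc1* (0.455) and *Rad51ap1* (0.467) in repair, and *Chaf1b* (0.437) and *Uhrf1* (0.492) in chromatin. *Rrm2* and *Uhrf1* lay just inside the limit of 0.5, and *Clspn* (0.511) and *Cdca7* (0.514) just outside. None of the polymerase genes was among them. The CCANT library also held the most cells with both MG and rod markers, and without rod-like and mixed clusters 8 genes were at least 2-fold lower in place of 11. That number was 9 with median-of-ratios size factors and 15 over all MG-like cells that passed the filters. Shares over all features were not computed under these settings.

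Which of the genes already have a level in control MG was read against neurons of the same control library, since free RNA and basal transcription give UMIs in cells that do not replicate. Against 851 control rods, 4 genes were higher in control MG with the interval of the ratio above 1 and 14 were lower with the interval below 1, beside 38.5% and 37.4% of all 16369 features tested. The 4 were *Brip1* at 4.26 times the rod level, *Atad2* at 1.99, *Tipin* at 1.59 and *Usp1* at 1.34. Against 376 bipolar cells 14 were higher and 9 lower, beside 40.3% and 32.3% of features. Against 623 amacrine cells 13 were higher and 8 lower (37.2% and 43.4%), and against 176 cones 3 and 10 (30.3% and 30.5%). Median depths were 5071 UMIs in these rods, 13796.5 in cones, 17324 in bipolar and 22438 in amacrine cells, beside 24235.5 in kept control cells. The part of depth in these comparisons was not tested. *Atad2* and *Tipin* were above all 4 kinds of neuron, and *Fen1*, *Gins2*, *Gmnn* and *Casp8ap2* below all 4, while *Usp1* was above and *Hells* below all but cones, from which neither could be told apart. *Mcm3* and *Mcm7* were above bipolar and amacrine cells and could not be told apart from rods. The whole group summed to 394.9 CPM in control MG beside 571.5 in rods, 352.6 in bipolar and 394.8 in amacrine cells. By this sum control MG lay between bipolar cells and rods, and next to amacrine cells.

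In the same neurons the group was also somewhat higher in the treated libraries. For CCANT to control the interval held 1 in rods, at 1.05 (0.996 to 1.10), and in cones, at 1.02 (0.956 to 1.09). It lay above 1 in bipolar and amacrine cells. The sum went from 571.5 CPM in control to 623.5 in CCA and 597.4 in CCANT rods, and from 394.8 to 460.8 and 443.6 in amacrine cells, while *Mcm2* to *Mcm7* together went from 24.6 to 29.8 and 32.6 CPM in rods and from 20.2 to 29.0 and 27.98 in amacrine cells. The G2/M list was at 34.9 CPM in control amacrine, 39.2 in bipolar, 85.0 in cone and 132.8 in rod cells, beside 58.2 in kept control cells. In CCA and CCANT it was at 66.5 and 49.8 CPM in amacrine and 82.0 and 56.6 CPM in bipolar cells. Cones were at 140.8 and 109.6 CPM and rods at 184.0 and 152.8 CPM. Those shifts were small beside the kept cells, where *Mcm2* to *Mcm7* went from 23.7 to 87.8 and 55.9 CPM, and the part of free RNA in either was not tested. Microglia and macrophages, which can divide in the retina, held more of the group than control MG, at 616.4 CPM in the control library.

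Per cell, the libraries differed most in a tail of cells with many of the 39 genes at once. Each cell was reduced by random draws to a depth of 8000 UMIs (36 control, 103 CCA and 53 CCANT cells were shallower and not counted), and the number of the 39 genes detected was counted. The median was 3 in each library. At least 5 of the genes were found in 490 of 3722 control cells (13.2%, exact binomial 95% interval 12.1% to 14.3%), in 951 of 3787 CCA cells (25.1%, 23.7% to 26.5%) and in 605 of 3225 CCANT cells (18.8%, 17.4% to 20.2%). Amacrine cells of these libraries gave 12.8%, 19.2% and 15.6% by the same count. The intervals of kept and amacrine cells overlapped at this limit in control and CCANT and not in CCA. In CCA that of amacrine cells ran from 16.2% to 22.4%. Bipolar cells had a smaller share than the kept cells in each library. Cones had a larger one in each, at 24.2% in control, 25.6% (20.6% to 31.1%) in CCA and 21.6% in CCANT. At this limit the CCA share of kept cells was thus above those of amacrine and bipolar cells and not above that of cones. At a limit of 10, set after the data had been seen, there were 2 control (0.0537%), 221 CCA (5.84%, 5.11% to 6.63%) and 86 CCANT cells (2.67%, 2.14% to 3.28%). Amacrine cells with 10 or more numbered 0 of 562, 3 of 637 (0.471%) and 2 of 623 (0.321%), where the 0 allows up to 0.534%. At 20 or more genes there were 103 CCA and 36 CCANT cells, and 0 of 3722 in the control. The largest number in any cell was 19 for control, 33 for CCA and 32 for CCANT.

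**Figure D3:**
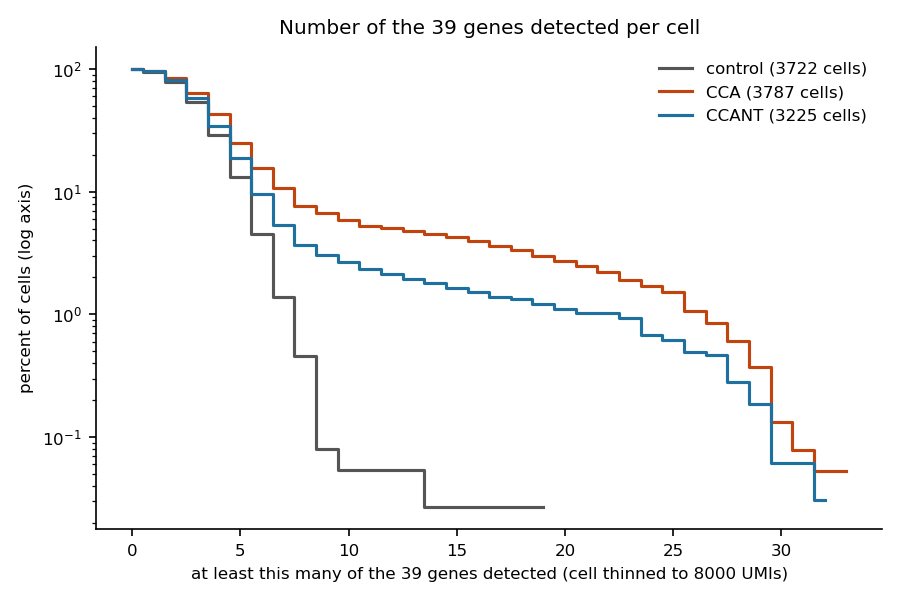
Percent of cells (log axis) with at least the given number of the 39 genes detected, each cell thinned to 8000 UMIs, in the control (grey, 3722 cells), CCA (orange, 3787) and CCANT (blue, 3225) libraries. At 5 genes the curves are at 13.2% (control), 25.1% (CCA) and 18.8% (CCANT), and at 10 genes the control is at 2 cells, or 0.0537%, beside 5.84% of CCA and 2.67% of CCANT cells.

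Where the UMIs of each gene sat was then read by splitting cells on the other 38 genes, so that a gene did not enter its own split. This does not undo the choice of cells rich in the group, so a high share is partly given by the choice. The shares are a description. Cells with at least 10 of the other 38 were 207 to 221 of the CCA cells, depending on the gene left out, or 5.47% to 5.84%. They held a median of 50.7% of a gene's UMIs in CCA, over 50% for 20 of the 39 genes, with a range from 12.8% for *Casp8ap2* to 82.5% for *Chaf1b*. *Dtl* was at 119 CPM in these cells and 1.58 in the others, and 82.1% of its UMIs lay in them. *Clspn* had 81.3% of its UMIs there, at 83.7 against 1.19 CPM. *Pcna* was far higher in these cells too, at 413 against 40.8 CPM, yet 37.2% of its UMIs lay in them because other cells also hold it. *Rfc2* (15.9%) and *Usp1* (17.5%) lay mostly outside. In CCANT, where the split gave 78 to 86 cells, the median share was 36.7%, with over 50% for 14 genes.

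In the cells with under 10 of the other genes, part of the CCA to control difference remained for some genes. Less of it remained under a limit of 5. The limit of 10 was set after the data had been seen, and 5 had been planned, though with earlier results of these data known. Either split lowers the level most in the library with most cells above the limit, so these ratios are not free of the choice. The CCA to control ratio in those cells was at least 2 for 14 genes and above 1 for 35, with the interval above 1 for 26 and below 1 for *Blm* alone, and its median was 1.40. At the limit of 5 it was at least 2 for 10 genes and above 1 for 33, with the interval above 1 for 18 and below 1 for *Brip1* (0.571 (0.395 to 0.816)) and *Blm* (0.765 (0.654 to 0.893)), and the median was 1.27. The ratio was above 1 for 59.2% of all features tested in these cells under the limit of 10, and for 58.1% under the limit of 5. These counts include genes with few UMIs. Of the 33 genes with at least 50 UMIs over both libraries, 9 were at least 2-fold higher and 21 had an interval above 1 under the limit of 10, beside 4.19% and 30.4% of 15381 features at that minimum. Under the limit of 5 these were 1 and 12 of 28 genes, beside 3.5% and 26.8% of 14984 features, so the count at 2-fold was near that share. The minimum sums both libraries, so a gene can pass it mainly through its CCA UMIs. Of the 9, *Rrm2* and *Dtl* had 7 control UMIs each, *Rad51ap1* 11, *Uhrf1* 15, *Mcm5* 27 and *Mcm2* 44. *Mcm3* and *Gmnn* had 57 each and *Mcm4* 169. Among the helicase subunits, *Mcm5* was at 3.43 (2.21 to 5.48) under the limit of 10 and 2.18 (1.30 to 3.73) under the limit of 5, and *Mcm2* at 2.30 (1.59 to 3.36) and 1.55 (1.00 to 2.40). *Mcm4* was at 2.00 (1.66 to 2.43) and 1.78 (1.44 to 2.20), *Mcm6* at 1.94 (1.51 to 2.51) and 1.41 (1.06 to 1.89), and *Mcm7* at 1.49 (1.27 to 1.75) and 1.29 (1.08 to 1.54). The interval of *Mcm3* was above 1 under the limit of 10, at 2.21 (1.60 to 3.08), and held 1 under the limit of 5, at 1.31 (0.891 to 1.94). The values that follow are those under 10. *Rrm2* was at 7.30 (3.29 to 19.1) on 7 control UMIs, and *Pcna* at 1.31 (1.20 to 1.43). *Brip1* went from 3.08 over all UMIs to 0.767 (0.565 to 1.04), and *Gins2* to 1.22 (0.917 to 1.61). *Fen1* (1.05 (0.832 to 1.32)), *Pola1* (1.04 (0.957 to 1.13)) and *Tipin* (0.946 (0.865 to 1.03)) had intervals that held 1. For CCANT over control the ratio in such cells was at least 2 for 6 genes, with the interval above 1 for 16 and a median of 1.17, and under the limit of 5 these were 4 genes, 9 genes and 1.13. With at least 50 UMIs, 0 of 28 genes were at least 2-fold higher and 11 had an interval above 1 in CCANT under the limit of 10, beside 4.13% and 26.8% of features. Under the limit of 5 these were 0 and 7 of 27 genes, beside 3.79% and 25.2%, so the 7 were near the share over all features.

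**Figure D4:**
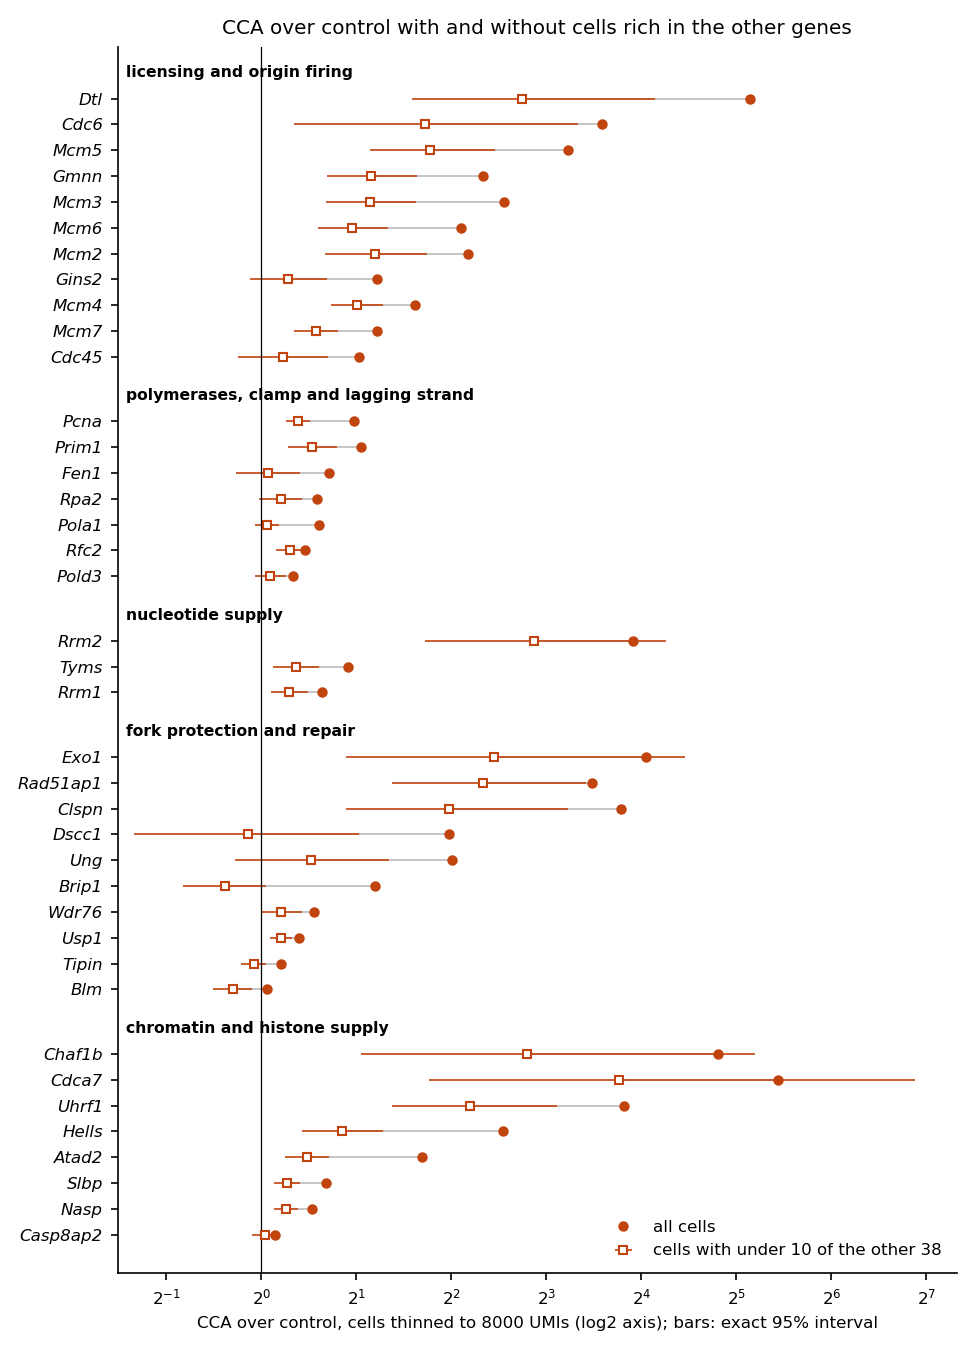
CCA to control ratio of each gene on a log2 axis over all cells thinned to 8000 UMIs (filled circles) and over cells with under 10 of the other 38 genes (open squares with exact 95% intervals). Every square lies to the left of its circle, *Mcm5* stays above 2 at 3.43, and *Blm* is at 0.812.

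Cells were also split by genes outside the group. Those with at least 5 UMIs of the 28 G2/M genes (247 CCA, 75 CCANT and 3 control cells at 8000 UMIs) held 2825 CPM of the 39 genes in CCA and 3272 CPM in CCANT, beside 496 and 442 CPM in cells with 0 G2/M UMIs. The ratio was 5.70 (5.50 to 5.91) in CCA and 7.40 (7.03 to 7.78) in CCANT. Crossing both splits gave 122 CCA cells with 10 or more of the 39 genes and under 5 G2/M UMIs, 99 with both, 148 with 5 or more G2/M UMIs and under 10 of the genes, and 3418 with neither, and 55, 31, 44 and 3095 in CCANT. The control had 0, 2, 1 and 3719. The summed level of cells with neither was 396.2 CPM (control), 457.7 CPM (CCA) and 420.6 CPM (CCANT). There the CCA to control ratio was 1.16 (1.13 to 1.18) over the group, 1.68 (1.54 to 1.83) for licensing genes and 0.979 (0.930 to 1.03) for fork protection and repair. Neurons were not thinned and not split in this way. The splits left out far more CCA than control cells of the kept set, so the ratios are not like for like. The group ratios of neurons were 1.17 (1.13 to 1.21) in amacrine, 1.15 (1.10 to 1.22) in bipolar, 1.09 (1.02 to 1.17) in cone and 1.09 (1.04 to 1.14) in rod cells. For licensing genes those ratios were 1.40 (1.25 to 1.57), 1.36 (1.15 to 1.62), 1.35 (1.07 to 1.73) and 1.20 (1.00 to 1.45). Over all cells at this depth the group ratio was 1.77.

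The levels of the 39 genes were then set side by side in the cells of these sets. One set was chosen for having many of the group and the other for having few, and leaving out the gene in question does not undo this, so a lower level in the second set is mostly given by the choice and the values are a description. In the CCA library, the ratio of the level in cells with G2/M transcripts alone to that in cells with replication genes alone was below 1 for 36 of the 39, with the interval below 1 for 34 and a median of 0.185. The ratios of the helicase subunits ran from 0 for *Mcm2* to 0.205 (0.133 to 0.308) for *Mcm7*. *Mcm2* had 56 UMIs in 117 cells of the replication set and 0 in 148 cells of the G2/M set, so the ratio's interval ended at 0.0538. *Hells* was at 164, 211, 4.17 and 4.42 CPM in cells with replication genes alone, with both, with G2/M genes alone and with 0 G2/M UMIs, and *Mcm4* had a ratio of 0.0514 (0.0202 to 0.110). *Pcna*, in the same order, was at 283, 566, 44.7 and 39.8 CPM. A few genes went another way. *Usp1* was the one gene with its interval above 1, at 137.5 CPM in the G2/M set and a ratio of 1.38 (1.06 to 1.79), and it reached 221.6 CPM in cells with both. *Rrm2* was at 6.15, 124, 10.98 and 1.07 CPM, most of it in cells with both, and *Rad51ap1*, *Rrm1* and *Uhrf1* also had intervals that held 1. The ratios of *Rrm2* and *Rad51ap1* were above 1. In CCANT the counts were smaller, and 25 genes had an interval below 1, 14 held 1 and 0 lay above.

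**Figure D5:**
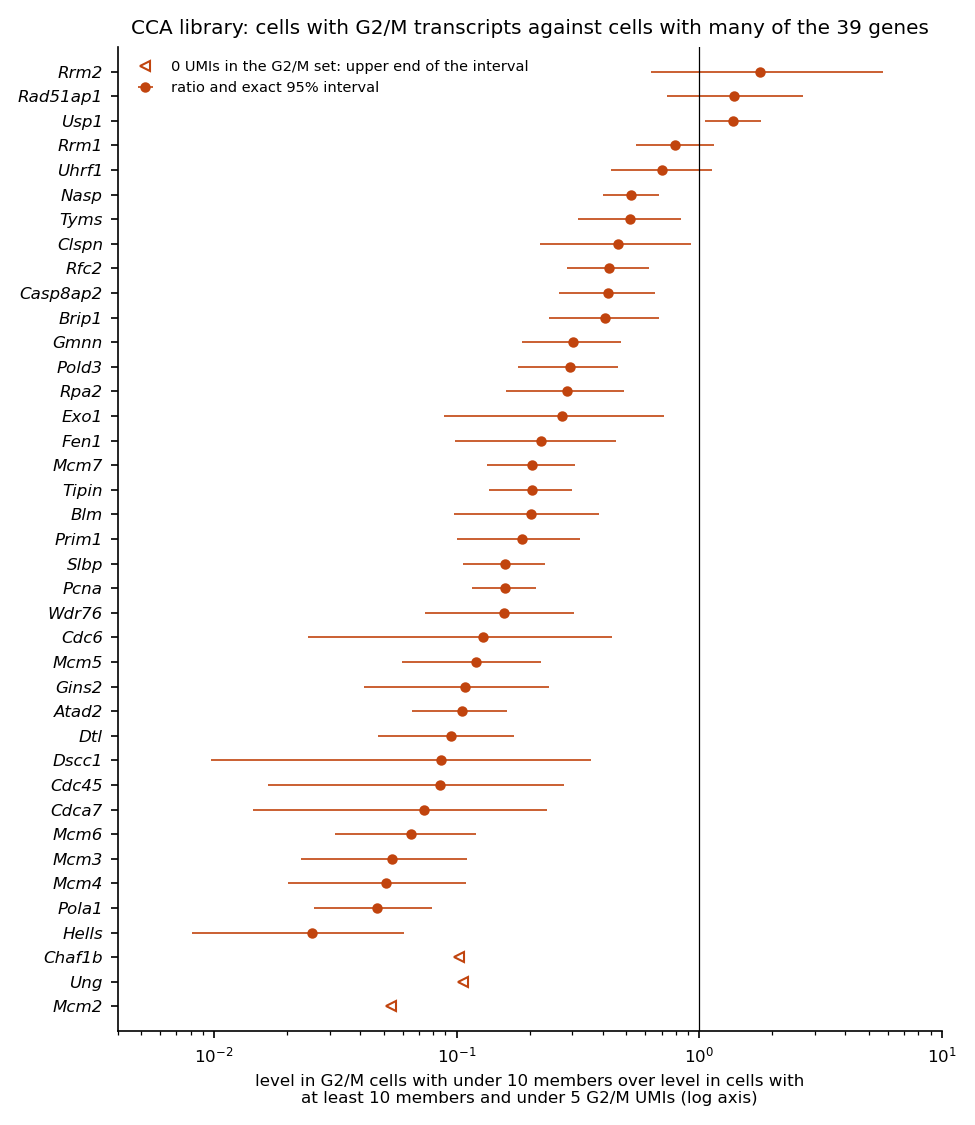
CCA library, ratio of each gene's level in cells with at least 5 G2/M UMIs and under 10 of the other 38 genes to its level in cells with at least 10 of the other 38 genes and under 5 G2/M UMIs, on a log axis. Bars are exact 95% intervals, and open triangles mark the upper end of the interval for *Mcm2*, *Ung* and *Chaf1b*, which had 0 UMIs in the first set. *Usp1* lies above 1 and *Hells* is the lowest gene with UMIs, at 0.0253.

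Cells of 1 sex could be compared for the CCANT library only. Among cells with Y-linked transcripts the group summed to 394.3 CPM in control and 598.6 in CCANT, a ratio of 1.52 (1.49 to 1.55). Among cells with *Xist* it summed to 764.6 CPM in CCA and 495.8 in CCANT, a ratio of 0.648 (0.638 to 0.659), and 18 genes were at least 2-fold lower in CCANT in place of 11. The share over all features was not computed in these cells, so the 18 cannot be set against a background. Within the CCANT library, cells with *Xist* had 0.828 (0.811 to 0.846) times the level of cells with Y-linked transcripts. *Dtl* gave 14.7 (9.91 to 22.6) in CCANT over control and 0.251 (0.200 to 0.311) in CCANT over CCA, *Mcm5* 5.31 (4.08 to 6.92) and 0.380 (0.313 to 0.459), and *Pcna* 1.64 (1.53 to 1.75) and 0.636 (0.600 to 0.673). The cells of the 2 sexes within CCANT come from different mice, so sex and mouse cannot be told apart there.

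Of 50 other replication genes that are outside the group, 16 were at least 2-fold higher in CCA than in control, 10 in CCANT, and 4 were at least 2-fold lower in CCANT than in CCA. Over all features tested these shares were 5.81%, 5.55% and 2.09%. The median log2 ratios were 0.59, 0.28 and -0.32, beside 0.07, 0.03 and -0.04 over all features. The 5 highest CCA ratios were those of the licensing factor *Cdt1* (0.513, 5.30 and 2.37 CPM, 10.3 (7.67 to 14.2)), the polymerase epsilon subunits *Pole* (7.42) and *Pole2* (5.77), thymidine kinase *Tk1* (5.63) and the histone chaperone *Asf1b* (4.83). The 5 lowest were those of *Mtbp* (1.04), *Asf1a* (1.04), the origin recognition subunits *Orc5* (1.02) and *Orc3* (0.924), and *Pole4* (0.828). The paralogs *Asf1b* and *Asf1a*, both carriers of histones H3 and H4, thus stood at opposite ends, at 1.14, 5.51 and 2.61 CPM and 33.4, 34.7 and 32.8 CPM.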

How the data were processed

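Single cells of 3 pooled samples, 1 library per group, were measured by 10x Genomics 3′ RNA-seq. Per the labels and the methods, the authors made the deposited counts, whole numbers of UMIs per gene and barcode without normalization, with Cell Ranger 6.1.1 on mm10 with tdTomato and GFP added, and counted intronic reads. Their filters required 2000 or more features, no more than 100000 UMIs and no more than 15% mitochondrial UMIs in a cell. They then kept cells with tdTomato, removed doublets with DoubletFinder, and left out small clusters of other cell types and a subcluster of MG with rod transcripts. The deposited joint table of kept cells gave the barcodes, matched to libraries by suffix, and counts were taken from the library matrices, since the joint table's control counts had been thinned by aggregation. The 3 libraries gave 95458516, 83266870 and 70825549 UMIs over kept cells, so 1 UMI is about 0.01 CPM.

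Levels were sums over the kept cells as CPM. Ratios carry exact conditional 95% intervals, levels exact Poisson and shares exact Clopper-Pearson intervals. A gene counted as higher or lower at a fold of 2 with at least 50 UMIs over both libraries, and a count of 0 was read against 3 counts. Per-cell counts used cells thinned to 8000 UMIs (seed 11). Neurons and microglia came from all cells that passed the stated filters, including those outside the joint table. No tdTomato requirement, doublet removal or removal of clusters was applied to these, so the MG-like cells among them include cells the authors left out. These were clustered with scanpy 1.11.5 (2000 variable genes, 20 components, 20 neighbours, Leiden resolution 0.5, 29 clusters), and clusters were named from marker lists of MG, rods, cones, bipolar, amacrine, ganglion and horizontal cells, microglia and macrophages, T and NK cells, pericytes, endothelial cells and astrocytes. Cells were called by sex chromosome when they had 3 or more Y-linked UMIs with no more than 1 *Xist* UMI, or the reverse.

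The rule for named genes took all 39 genes in 5 roles, the 5 highest and 5 lowest of 50 other replication genes, and *Cdkn1b* and *Ccnd1*. The genes, lists and limits were chosen with earlier results of these data known. Scripts ran in Python 3.11.15 (numpy 2.4.6, scipy 1.17.1, pandas 2.3.3, matplotlib 3.10.9), and the ratio and thinning steps were tested on simulated data. Gene positions are from GENCODE M21 on GRCm38 (mm10), and promoters from RefSeq on GRCm38.p6. Alternatives changed the scaling, cells, depth, fold, minimum count and motif window. The labels give tamoxifen as above, and the methods give another dose and start. Intronic and 3′ counting makes UMIs of different genes not comparable as levels, so levels were compared within genes or over the same list.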

Additional observations from a re-analysis of the deposited data

Results flagged for a closer look

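MG-like cells outside the joint table, which the comparisons above do not use, also held the group above the level of the control library. At 8000 UMIs per cell, at least 5 of the 39 genes were found in 34.6% of 1242 such CCA cells and 22.7% of 2067 such CCANT cells, beside 13.2% of the kept control cells. At least 10 of the genes were found in 200 of these CCA cells (16.1%, exact binomial 95% interval 14.1% to 18.3%), in 96 of these CCANT cells (4.64%, 3.78% to 5.64%) and in 0 of 1847 such control cells, which allows a share of up to 0.162%. The kept cells gave 5.84% in CCA and 2.67% in CCANT. Doublets were not removed from the cells outside the joint table, and their part in these shares was not tested.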

How the results depend on the processing

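Of 88 alternative values for 17 results, 40 lay within the interval or limit of the reported value and 48 moved beyond it. Those 48 include changes of the limit, fold or depth in the definition of a share or count, where a shift was set in advance. A change of direction was scored only for the ratios of levels, of which 0 reversed. Counts and shares could not be scored in this way. The summed ratio of CCA to control (1.94) was 1.83 with median-of-ratios size factors, 2.52 over all MG-like cells passing the filters, 1.44 without cells with at least 5 G2/M UMIs and 1.77 as a mean over cells. Under these same settings CCANT to control (1.39) was 1.35, 1.57, 1.18 and 1.33, and also 1.42 without rod-like and mixed clusters and 1.52 in same-sex cells. CCANT to CCA (0.721) was 0.739, 0.622, 0.816 and 0.752, and 0.648 in same-sex cells. Genes at least 2-fold higher numbered 20 to 28 in CCA and 13 to 21 in CCANT under the alternatives that kept a fold of 2, while a fold of 1.5 gave 32 and 23 genes and a fold of 3 gave 20 and 15. The 11 lower in CCANT than in CCA became 7 without G2/M cells, 18 in same-sex cells, 20 at a fold of 1.5 and 0 at a fold of 3. For these alternative counts the shares over all features were not computed.

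The share of cells with at least 5 of the genes (13.2% control, 25.1% CCA, 18.8% CCANT) was 2.72%, 11.5% and 6.74% at 5000 UMIs and 33.6%, 49.5% and 40.2% at 12000 UMIs. With at least 3 genes it was 53.4%, 63.7% and 58.1%, with at least 8 it was 0.457%, 7.71% and 3.69%, and with at least 10, chosen after seeing the data, 0.0537%, 5.84% and 2.67%. Over all MG-like cells it was 27.7% in CCA and 20.4% in CCANT, and within CCANT 21.5% in cells with Y-linked transcripts and 16.6% in cells with *Xist*. The 4 genes above control rods became 14 above bipolar cells, 13 above amacrine cells, and 2 without control cells with at least 3 of the genes. The 16 other replication genes became 26 at a fold of 1.5. The median share of a gene's UMIs in cells with at least 5 of the other 38 genes was 66.5% in CCA and 53.3% in CCANT, and became 83.7% and 73.9% at a limit of 3, and 50.7% and 36.7% at a limit of 10, again chosen after seeing the data. The ratio between cells with G2/M transcripts and those without (5.70 and 7.40) was 3.79 in CCA and 4.26 in CCANT at a limit of 3 UMIs. A change of limit, fold or depth shifts such shares and counts by definition, and the cause of the other shifts was not tested. No paired analysis was possible because each group is 1 library.

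With 1 library per group, differences between mice, pools, sexes and treatments cannot be told apart, and depth limits the genes with few control UMIs most.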

Other observations

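The class of microglia and macrophages held cells rich in the group in every library. At 8000 UMIs, 10 or more of the 39 genes were found in 8 of 221 such cells in the control (3.62%), 10 of 144 in CCA (6.94%) and 8 of 147 in CCANT (5.44%), and the exact binomial intervals of the 3 shares overlap. In the control library 0 of 5517 cells in clusters named MG-like had that many (which allows up to 0.0544%), and the 2 kept control cells with 10 or more lay in clusters left unnamed. *Mcm2* to *Mcm7* summed to 74.7, 117.9 and 104.1 CPM in that class, beside 23.7, 87.8 and 55.9 CPM in the kept cells.

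Depth before thinning differed between the sets of kept cells. In CCA, cells with 10 or more of the genes and under 5 G2/M UMIs had a median of 23923 UMIs before thinning, those with both 28639, those with G2/M transcripts alone 19187.5, and those with neither 20697. In CCANT these medians were 22853, 28871, 21722 and 20721. In both treated libraries the cells with both had the highest median. The control held 2 cells with both, 1 with G2/M transcripts alone and 3719 with neither, with medians of 21483.5, 27890 and 24326 UMIs.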
